A study of Mus musculus with 8 samples.

Results

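The genes described here are 10 genes of the stomach-type mucous lineage and of membrane-bound mucins: Muc5ac, Muc6, Tff1, Tff2, Cldn18 and Anxa10 on the gastric side, and Muc1, Muc4, Muc13 and Muc20 on the membrane side. They were taken by symbol from the 38355 genes of the deposited count tables, and no expression value entered the choice. The data are RNA sequencing counts of 8 whole colon tumours from mice, all treated with azoxymethane, a colon carcinogen, with 1 tumour per mouse. In 4 tumours the genotype was Trp53ΔIEC, that is, loss of the tumour suppressor Trp53 in intestinal epithelial cells, and in 4 it was Trp53ΔIECAktE17K, the same loss with an activating E17K form of the kinase AKT. Both groups thus share the Trp53 deletion and the carcinogen, and normal colon was not analysed here. The promoters that drive Cre and AktE17K, the age of the mice and the cells in which AktE17K is made are not stated in the labels. Assigned reads per tumour ranged from 18572180 to 26268547, so that 1 read corresponded to 0.0376 to 0.0559 CPM (the read count of a gene scaled to a common library size, with TMM factors). All fold changes are Trp53ΔIECAktE17K over Trp53ΔIEC.

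Mucins are long proteins densely coated with sugar chains. The secreted ones form the mucus gel, whereas the membrane-bound ones form the sugar coat on the apical surface of epithelial cells and can signal through their tails. In the stomach, surface cells secrete MUC5AC together with the trefoil peptide TFF1, and neck and gland cells secrete MUC6 together with TFF2. The colon instead makes MUC2 and TFF3 in goblet cells and carries MUC13 among its main membrane mucins. Stomach-type genes, with ANXA10 and the stomach isoform of claudin 18, are known from serrated lesions of the human colon.

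The 10 genes varied widely between single tumours of a genotype, and no difference between the genotypes passed the test in edgeR. Of the 10, 7 had enough reads to be tested and 0 of these 7 passed an adjusted p of 0.05 (edgeR quasi-likelihood, Benjamini-Hochberg over 16539 genes), where 4.2% of all tested genes passed (3.44% higher and 0.756% lower). Only Muc1 had an unadjusted p under 0.05, a level that 20.8% of all tested genes reached. DESeq2 called 3 of the 10 higher (Muc1, Muc5ac and Tff2) and limma-voom called 0. Over the whole table DESeq2 called 1715 genes higher and 764 lower, where edgeR called 569 and 125. Its counts are therefore not to be set against the edgeR share of 4.2%. In 9 of the 10 genes the groups overlapped, Muc5ac being the exception, and over all tested genes 14.2% had no overlap (8.34% higher and 5.88% lower). The highest level of the 8 tumours was in Trp53ΔIECAktE17K replicate 2 for 6 of the 10 genes (Muc1, Muc4, Muc20, Tff1, Tff2 and Anxa10), a place that this tumour took for 11.4% of all tested genes. The second highest level was in Trp53ΔIEC replicate 3 for 6 genes (Muc4, Muc6, Muc13, Muc20, Tff1 and Anxa10), against 12.3% of all tested genes. Trp53ΔIECAktE17K replicate 3 was highest for 1 gene (Muc5ac) and lowest for 3 (Muc4, Muc6 and Muc20). It was highest for 21.5% and lowest for 20.7% of all tested genes, more than any other tumour in both.

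**Figure D1:**
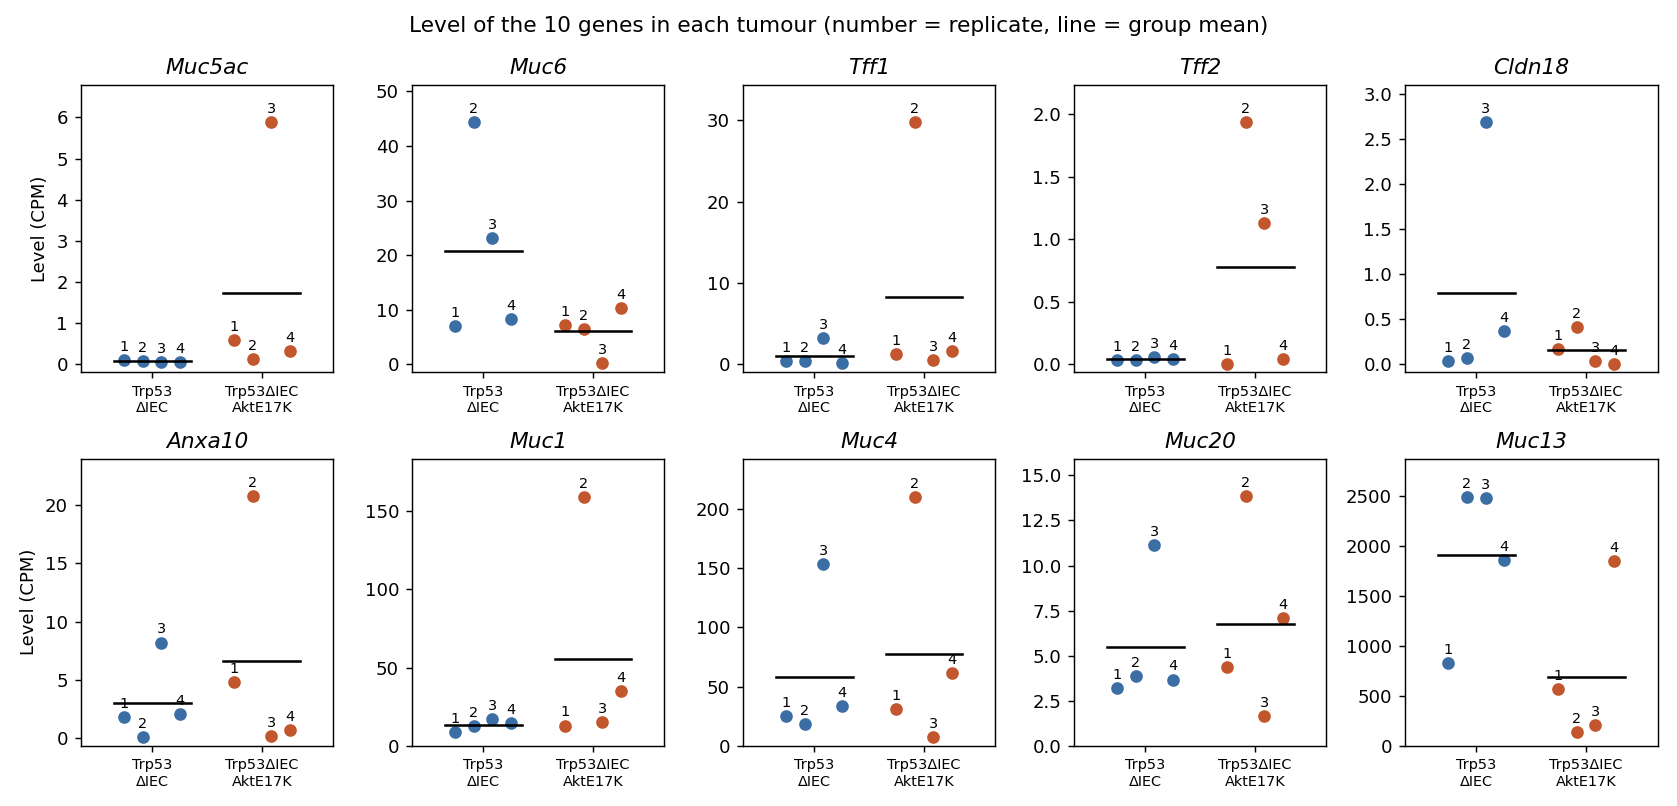
Level in CPM (vertical axis, linear, scaled separately for each gene) of the 10 genes in the 4 Trp53ΔIEC (blue) and 4 Trp53ΔIECAktE17K (orange) tumours, with the replicate number above each point and a line at the group mean. Several group means are carried by 1 tumour, such as Trp53ΔIECAktE17K replicate 2 for Tff1 (29.8 CPM) and Muc1 (159.3 CPM) and replicate 3 for Muc5ac (5.88 CPM).

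The gel-forming stomach mucins were low and lay in different tumours. Muc5ac (ENSMUSG00000037974, chromosome 7, 141788972 to 141819231, plus strand, mm10), the surface mucin, had 3, 2, 1 and 1 reads in the Trp53ΔIEC tumours, listed from replicate 1 to 4 here and throughout. The Trp53ΔIECAktE17K tumours had 14, 3, 140 and 7 reads. In CPM this was 0.115, 0.0752, 0.0559 and 0.0465 against 0.593, 0.123, 5.88 and 0.326. Every Trp53ΔIECAktE17K tumour lay above every Trp53ΔIEC tumour, but the lowest of them, replicate 2, exceeded the highest Trp53ΔIEC tumour by less than the worth of 1 read, and 81.5% of the summed level was in replicate 3. Muc5ac did not reach the count filter of the test. A two-sided exact permutation test of its CPM gave p = 0.0286, the smallest that 4 against 4 tumours allow. With all genes of at least 1 read in the fit, its log2 fold change was 4.42 with an edgeR adjusted p of 0.112, whereas DESeq2 gave 4.52 with an adjusted p of 0.00387. Its neighbour Muc5b, 19838 bases away, the airway gel mucin, had 0.0465 to 0.115 CPM in Trp53ΔIEC tumours and 0.169, 4.32, 8.44 and 0.140 CPM in Trp53ΔIECAktE17K tumours, so that it was highest in the same tumour as Muc5ac. That tumour was the highest for 21.5% of all tested genes.

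Muc6 (ENSMUSG00000048191, chromosome 7, 141633456 to 141655319, minus strand), the mucin of stomach neck and gland cells, had the opposite order of means. Its level was 7.08, 44.3, 23.1 and 8.24 CPM with Trp53 loss alone and 7.24, 6.42, 0.168 and 10.3 CPM with AktE17K. Replicates 2 and 3 of Trp53ΔIEC stood above the rest, and Trp53ΔIECAktE17K replicate 3, the tumour with the most Muc5ac, had 4 reads of Muc6. The log2 fold change was -1.78 ± 0.98 (SE, 95% interval -4.01 to 0.46, adjusted p = 0.341), and without Trp53ΔIEC replicate 2 it was -1.09 (adjusted p = 0.609). The number of Muc6 reads per Muc5ac read was 61.7 to 589 in Trp53ΔIEC tumours and 0.0286 to 52.0 in Trp53ΔIECAktE17K tumours, a ratio that does not depend on library scaling. Its denominators were 1 to 3 Muc5ac reads in Trp53ΔIEC tumours and 3 in Trp53ΔIECAktE17K replicate 2. The ratios thus carry large counting error, and the gap between the groups rests on single reads. Muc2, the colon goblet cell mucin between them in the same cluster, was far more abundant, at 859, 278, 439 and 469 CPM against 859, 482, 503 and 2359 CPM (a log2 difference of 1.04, adjusted p = 0.339). Muc6 came to 0.00824 to 0.159 reads per Muc2 read in Trp53ΔIEC tumours and to 0.000334 to 0.0133 in the others. These counts leave out reads with several places in the genome. Of the 50-base words in the longest annotated transcript, 23.2% of those of Muc5ac, 12.7% of Muc6, 10.1% of Muc4, 14.2% of Muc13 and 1.28% of Muc1 recur within the same transcript, so reads from those repeats may be missing.

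The trefoil genes, which encode small disulphide-knotted peptides secreted with mucins, lie side by side on chromosome 17. Tff1 (ENSMUSG00000024032, 31161395 to 31165277, minus strand), the partner of the surface mucin, had 0.383, 0.414, 3.30 and 0.186 CPM with Trp53 loss alone. It had 1.27, 29.8, 0.504 and 1.68 CPM with AktE17K. Trp53ΔIECAktE17K replicate 2 held 79.4% of the summed level and Trp53ΔIEC replicate 3 came next. The log2 fold change was 2.98 ± 1.47 (SE, 95% interval -0.38 to 6.34, adjusted p = 0.293), and without Trp53ΔIECAktE17K replicate 2 it was 0.11. Leaving out Trp53ΔIEC replicate 3 gave 4.61 (adjusted p = 0.201), and the title letter as a term 0.05. An antisense gene, Gm15318, covers 31.4% of the exon bases of Tff1, and with a library kit that does not record the strand their reads there cannot be told apart. Reads that matched more than 1 gene were left unassigned, so Tff1 reads from that stretch may be missing. Gm15318 itself had at most 0.494 CPM. Tff2 (ENSMUSG00000024028, 31141049 to 31144282, minus strand), the partner of the gland mucin, had 1 read in each Trp53ΔIEC tumour and 0, 47, 27 and 1 reads in the AktE17K tumours. Its level was thus 1.93 CPM in replicate 2 and 1.13 CPM in replicate 3, and 0 reads in replicate 1 allow up to 0.127 CPM. Tff2 was under the count filter (exact permutation p = 0.343). Trp53ΔIECAktE17K replicate 3 had 140 reads of Muc5ac and 12 of its usual partner Tff1, and 27 reads of Tff2 and 4 of its partner Muc6. The exons cover 10752 bases in Muc5ac and 703 in Tff1, so per kilobase Tff1 was not below Muc5ac. For Tff2 and Muc6 they cover 584 and 9361 bases.

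Tff3, the goblet cell trefoil gene 11402 bases from Tff2, was the main trefoil transcript in all 8 tumours, at 156, 44.8, 82.1 and 79.2 CPM against 182, 59.7, 89.7 and 434 CPM (log2 fold change 1.08, adjusted p = 0.371). The number of Tff1 reads per Tff3 read was 0.00245, 0.00924, 0.0402 and 0.00235 in Trp53ΔIEC tumours and 0.00698, 0.499, 0.00562 and 0.00386 in Trp53ΔIECAktE17K tumours. Trp53ΔIECAktE17K replicate 2 was the 1 tumour in which Tff1 came near to Tff3, and the rest of the group lay within the Trp53ΔIEC range.

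Cldn18 and Anxa10 were also uneven between tumours. Cldn18 (ENSMUSG00000032473, chromosome 9, 99689461 to 99717267, minus strand), a tight junction gene with a stomach and a lung isoform, had 1, 2, 48 and 8 reads with Trp53 loss alone and 4, 10, 1 and 0 reads with AktE17K. Trp53ΔIEC replicate 3 held 70.8% of the summed level (2.68 CPM), and 0 reads in Trp53ΔIECAktE17K replicate 4 allow up to 0.140 CPM. Counts per gene do not separate the isoforms, and Cldn18 was under the count filter (exact permutation p = 0.543). Anxa10 (ENSMUSG00000031635, chromosome 8, 62057042 to 62123150, minus strand), an annexin of the stomach lining, had 1.8, 0.0752, 8.21 and 2.09 CPM in Trp53ΔIEC tumours. It had 4.83, 20.8, 0.168 and 0.699 CPM in Trp53ΔIECAktE17K tumours. Of the summed Anxa10 level 53.8% was in Trp53ΔIECAktE17K replicate 2, 21.2% in Trp53ΔIEC replicate 3 and 12.5% in Trp53ΔIECAktE17K replicate 1. The range covered 109-fold within Trp53ΔIEC and 124-fold within Trp53ΔIECAktE17K, against a log2 fold change between the groups of 1.13 ± 1.44 (SE, 95% interval -2.16 to 4.42, adjusted p = 0.700). Anxa10 reversed to -0.67 when Trp53ΔIECAktE17K replicate 2 was left out, and without Trp53ΔIEC replicate 3 it was 2.31.

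**Figure D2:**
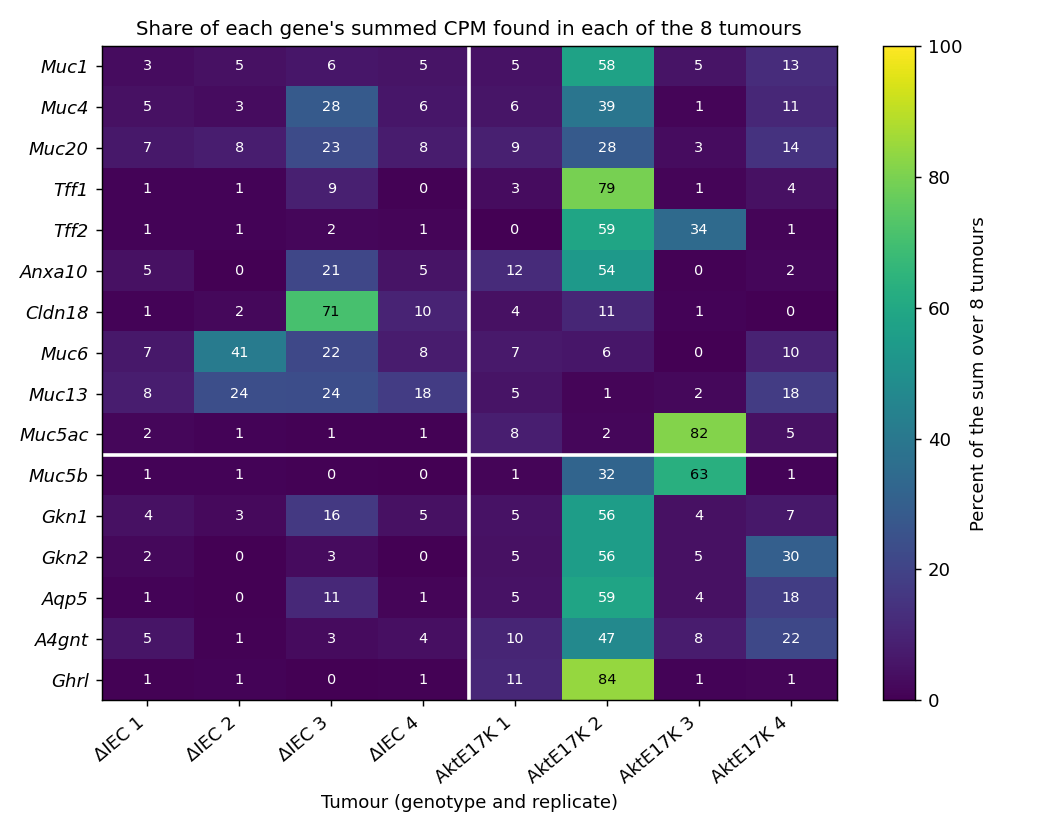
Each row gives 1 gene and each cell the percent of its CPM summed over the 8 tumours that was found in that tumour, so that equal levels would give 12.5 in every cell. The 10 genes stand above the white line, and Muc5b and 5 stomach genes below it were added after their values were seen. These 5 all peak in Trp53ΔIECAktE17K replicate 2, whereas other stomach genes, such as Ctse and Psca, peaked in other tumours. Trp53ΔIECAktE17K replicate 2 holds most of Tff1, Muc1, Tff2 and Anxa10, replicate 3 most of Muc5ac and Muc5b, and Trp53ΔIEC replicate 3 most of Cldn18.

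Among the membrane mucins, Muc1 had the smallest p. Muc1 (ENSMUSG00000042784, chromosome 3, 89229057 to 89233381, plus strand), a membrane mucin of most glandular epithelia whose tail takes part in signalling, had 8.80, 12.7, 17.1 and 14.8 CPM with Trp53 loss alone. It had 13.0, 159, 15.1 and 35.2 CPM with AktE17K. Replicates 2 and 4 lay above all Trp53ΔIEC tumours, while replicates 1 and 3 lay within their range. The log2 fold change was 2.06 ± 0.79 (SE, 95% interval 0.25 to 3.86, unadjusted p = 0.0300, adjusted p = 0.184 in edgeR), and without Trp53ΔIECAktE17K replicate 2 it was 0.63 (adjusted p = 0.463). Limma-voom gave 1.35, and the letter in the sample titles, taken as a term, 0.91. DESeq2 gave an adjusted p of 0.0491. Per read of the epithelial adhesion gene Epcam there were 0.00354 to 0.00829 Muc1 reads in Trp53ΔIEC tumours and 0.0101 to 0.0883 in Trp53ΔIECAktE17K tumours. Epcam itself was at 2062 to 2507 CPM against 1101 to 1890 CPM, lower in all 4 tumours with AktE17K, which raises any ratio to it, and in CPM the Muc1 groups overlapped. Of all tested genes, those whose log2 CPM followed Muc1 most closely over the 8 tumours were Ccdc180 and Olfm4, a crypt and goblet-lineage glycoprotein gene, with a Pearson r of 0.95 and 0.92, given as a description.

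Muc4 and Muc20 face each other on chromosome 16 and overlap at their 3′ ends by 4973 bases. Muc4 (ENSMUSG00000079620, 32735886 to 32782391, plus strand) encodes a large membrane mucin that binds the receptor ERBB2, and Muc20 (ENSMUSG00000035638, 32777419 to 32797435, minus strand) a small one. Muc4 had 25.3, 18.8, 154 and 33.3 CPM in Trp53ΔIEC tumours and 31.4, 210, 7.22 and 61.2 CPM in Trp53ΔIECAktE17K tumours. Muc20 had 3.21, 3.87, 11.1 and 3.68 CPM against 4.36, 13.9, 1.64 and 7.08 CPM. For both genes Trp53ΔIECAktE17K replicate 2 and Trp53ΔIEC replicate 3 stood high and Trp53ΔIECAktE17K replicate 3 was the lowest, so that the groups overlapped. The difference on the log2 scale was 0.43 ± 1.00 (SE, 95% interval -1.86 to 2.72, adjusted p = 0.848) for Muc4 and 0.30 ± 0.67 (SE, 95% interval -1.22 to 1.82, adjusted p = 0.836) for Muc20. Both signs turned without Trp53ΔIECAktE17K replicate 2, to -0.81 and -0.34, and without Trp53ΔIEC replicate 3 the values were 1.57 and 0.89.

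Over the 8 tumours Muc4 and Muc20 moved together on the log2 CPM scale, with a Pearson r of 0.983 (exact permutation p = 0.000298, 0.00625 after Benjamini-Hochberg adjustment over the 21 pairs of the 7 tested genes). Spearman's rho was 0.881 (exact permutation p = 0.00724, adjusted 0.0760), and without the 2 tumours farthest from the median of Muc20, Trp53ΔIEC replicate 3 and Trp53ΔIECAktE17K replicate 2, r was 0.947. Each was the gene most like the other among all genes tested. No other of the 21 pairs passed the adjusted test on Pearson's r. By Spearman's rho Muc6 and Muc13 had 0.929 (exact permutation p = 0.00223, adjusted 0.0469), with a Pearson r of 0.702 (exact permutation p = 0.0305, adjusted 0.107). The shared exon bases of Muc4 and Muc20 come to 5.33% of the exon bases of Muc4 and 15.6% of those of Muc20. Without strand, reads there cannot be told apart. Reads that matched more than 1 gene were left unassigned in the deposited counts (1.93% to 2.32% of uniquely aligned reads). How many came from this stretch, and its part in the correlation, was not tested. There were 4.41 to 15.2 Muc4 reads per Muc20 read.

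**Figure D3:**
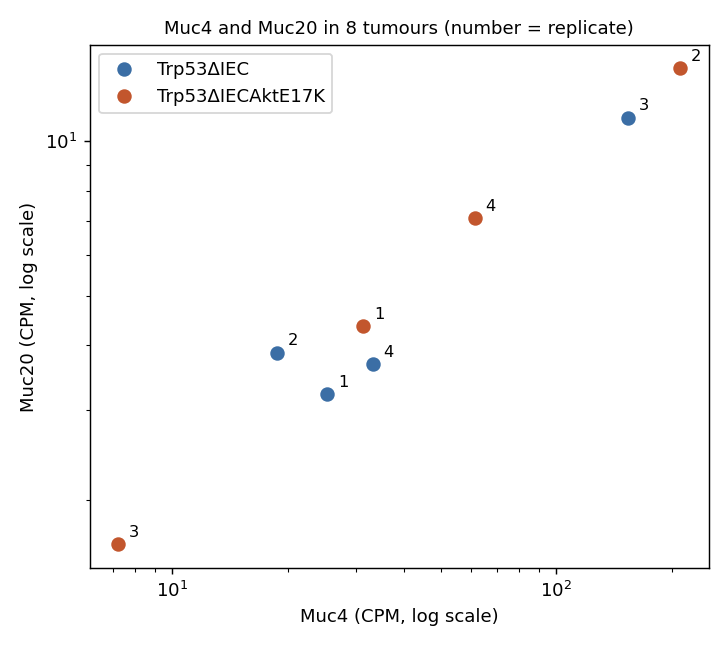
Muc20 against Muc4 in CPM, both on log scales, in the 4 Trp53ΔIEC (blue) and 4 Trp53ΔIECAktE17K (orange) tumours, labelled with the replicate number. The points follow 1 line (Pearson r = 0.983) and the genotypes are mixed along it.

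The start regions of this pair are shown because the genes moved together from separate starts. Sequences are the 250 bases before the transcription start, from RefSeq on GRCm38.p6, which has the coordinates of mm10, 5′ to 3′ on the strand of the gene, at chr16:32735636-32735885 (plus) for Muc4 and chr16:32797436-32797685 (minus) for Muc20. Capitals mark matches to a set of 10 short motifs, searched on both strands of each window. The word TATAAA stands for the TATA box and TTTATG for the intestinal factor CDX2. AGATAA stands for the GATA factors of gut and stomach, and TGTTTAC for the FOXA factors of endoderm. TGANTCA stands for AP-1, a factor of growth signalling, and GGGCGG for the broad SP1 and KLF family. TGGGAA stands for RBPJ, the DNA-binding partner of NOTCH receptors, and ACAATGG for the stomach and squamous factor SOX2. CAAAGTCCA stands for HNF4, a factor of gut and liver epithelium, and HNF1 was searched by a longer word that is not spelled here.
Muc4: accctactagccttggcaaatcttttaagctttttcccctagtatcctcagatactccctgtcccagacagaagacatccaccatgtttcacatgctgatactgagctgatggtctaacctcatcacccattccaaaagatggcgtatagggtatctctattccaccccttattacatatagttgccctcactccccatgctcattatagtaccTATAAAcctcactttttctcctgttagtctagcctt
Muc20: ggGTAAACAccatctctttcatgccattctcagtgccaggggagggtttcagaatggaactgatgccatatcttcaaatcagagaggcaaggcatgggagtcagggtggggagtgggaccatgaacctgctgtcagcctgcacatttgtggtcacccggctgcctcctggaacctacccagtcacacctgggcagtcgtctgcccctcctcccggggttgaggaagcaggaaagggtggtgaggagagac
The windows share no motif of the set. Muc4 has a TATAAA starting 36 bases before the start, a word that 12.4% of the 32851 windows of this length contain, and Muc20 a match to TGTTTAC 248 bases before it, found in 3.17% of windows. The other words occur in 10.8% (CDX2), 9.99% (GATA), 6.75% (AP-1), 32.7% (SP1 and KLF), 21.6% (RBPJ), 3.02% (SOX2), 0.384% (HNF4) and 0.00913% (HNF1) of windows. Of the 10 genes 7 have a window in the table, and Muc5ac, Tff1 and Tff2 do not.

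Muc13 (ENSMUSG00000022824, chromosome 16, 33794037 to 33819934, plus strand), the transmembrane mucin of intestinal absorptive and goblet cells, was by far the most abundant of the 10. It had 826, 2493, 2475 and 1855 CPM with Trp53 loss alone and 568, 141, 206 and 1845 CPM with AktE17K. Replicates 2 and 3 of Trp53ΔIECAktE17K were the lowest, and replicate 4 lay within the Trp53ΔIEC range, as did none of the other 3 tumours of its group. The log2 fold change was -1.47 ± 0.79 (SE, 95% interval -3.27 to 0.32, adjusted p = 0.328). Without Trp53ΔIECAktE17K replicate 4 it was -2.66 (adjusted p = 0.0503), and with the title letter as a term -0.90. Per Epcam read there were 0.332, 1.18, 1.2 and 0.740 Muc13 reads in Trp53ΔIEC tumours and 0.443, 0.0780, 0.187 and 0.976 in the others, and on this scale replicates 1 and 4 lay within the Trp53ΔIEC range. In Trp53ΔIECAktE17K replicate 2 there were 1.13 Muc1 reads and 1.50 Muc4 reads per Muc13 read, where the other 7 tumours had 0.00511 to 0.0732 and 0.00753 to 0.0621.

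The Muc13 starts are shown because this was the gene with the highest level. RefSeq lists 2 starts, with upstream windows at chr16:33793787-33794036 and chr16:33794239-33794488 on the plus strand, in the same notation.
Muc13, upstream start: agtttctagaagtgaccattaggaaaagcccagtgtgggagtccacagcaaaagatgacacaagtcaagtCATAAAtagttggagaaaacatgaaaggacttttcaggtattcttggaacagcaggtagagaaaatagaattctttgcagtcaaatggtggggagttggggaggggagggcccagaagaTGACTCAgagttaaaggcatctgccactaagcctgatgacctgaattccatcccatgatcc
Muc13, downstream start: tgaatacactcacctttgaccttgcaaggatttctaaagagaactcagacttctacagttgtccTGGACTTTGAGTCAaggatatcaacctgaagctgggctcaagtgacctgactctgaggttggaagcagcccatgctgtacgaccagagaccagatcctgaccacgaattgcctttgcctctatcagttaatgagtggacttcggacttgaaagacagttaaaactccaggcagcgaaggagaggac
The upstream window matches TTTATG (10.8% of all windows) and TGANTCA (6.75%). The downstream window matches CAAAGTCCA on the opposite strand, 186 bases before the start, a word found in 0.384% of windows, and its letters run into a TGANTCA match that starts 179 bases before it. Hnf4a, the gene of a factor known for that word and chosen here after its values were seen, had 370, 475, 716 and 388 CPM in Trp53ΔIEC tumours and 164, 108, 42.1 and 352 CPM with AktE17K (log2 fold change -1.55, adjusted p = 0.168). Hnf4g, the related gene in the lists, had a log2 fold change of -0.53 (edgeR adjusted p = 0.657). Cdx2, whose word is in the upstream window, had -0.37 (adjusted p = 0.778). In both of these the groups overlapped. A match of letters says nothing of binding, and a part of these factors in the Muc13 level was not tested.

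**Figure D4:**
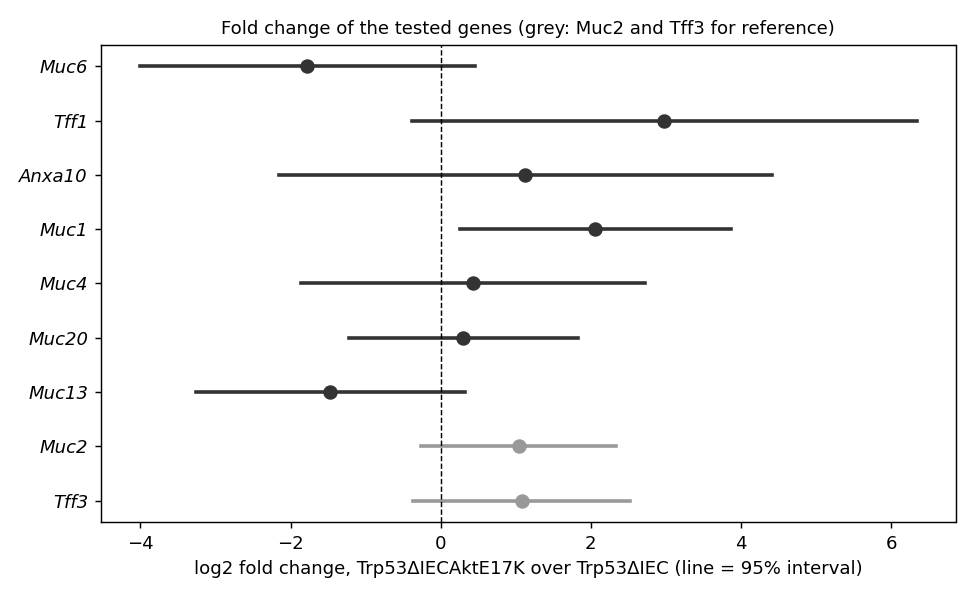
log2 fold change (points) with its 95% interval (lines) for the 7 tested genes, and for Muc2 and Tff3 in grey, from the edgeR fit of 4 against 4 tumours. The interval of Muc1 (0.25 to 3.86) lies above 0 before adjustment for the number of genes, and the others include 0.

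Per kilobase of exon, which allows levels of different genes to be compared, Muc13 was the leading mucin gene in the 4 Trp53ΔIEC tumours and in none of the 4 with AktE17K. Of the summed reads per kilobase of 12 mucin genes, Muc13 took 44.8%, 86.7%, 66.1% and 67.2% with Trp53 loss alone and 31.7%, 17.1%, 24.3% and 37.2% with AktE17K, so that the groups did not overlap in this share. Muc3, another membrane mucin of the intestine, took 31.3%, 7.10%, 24.9% and 22.9% with Trp53 loss alone and 42.2%, 18.1%, 41.3% and 37.9% with AktE17K, where it exceeded Muc13 in all 4 tumours. This order depends on the exon length, annotated as 1943 bases for Muc3. By reads alone Muc13 exceeded Muc3 in replicates 1, 2 and 4 with AktE17K (13407, 3417 and 39617 against 11413, 2313 and 25807). Repeats within Muc3 and Muc2 were not examined. Muc2 took 4.12% to 19.8% in Trp53ΔIEC tumours and 20.3% to 25.4% in the others. Muc1 took 0.574% to 0.697% in Trp53ΔIEC tumours, and 0.937%, 25.1%, 2.31% and 0.920% in Trp53ΔIECAktE17K tumours. In replicate 2 of the latter Muc1 had the highest share, beside 25.0% for Muc2. Muc4 took 6.61% in Trp53ΔIECAktE17K replicate 2 and 0.169% to 1.06% in the other 7 tumours. Muc5ac and Muc6 stayed at or under 0.196% and 0.500% in every tumour. A share falls when another gene of the sum rises, and no test was made on shares.

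**Figure D5:**
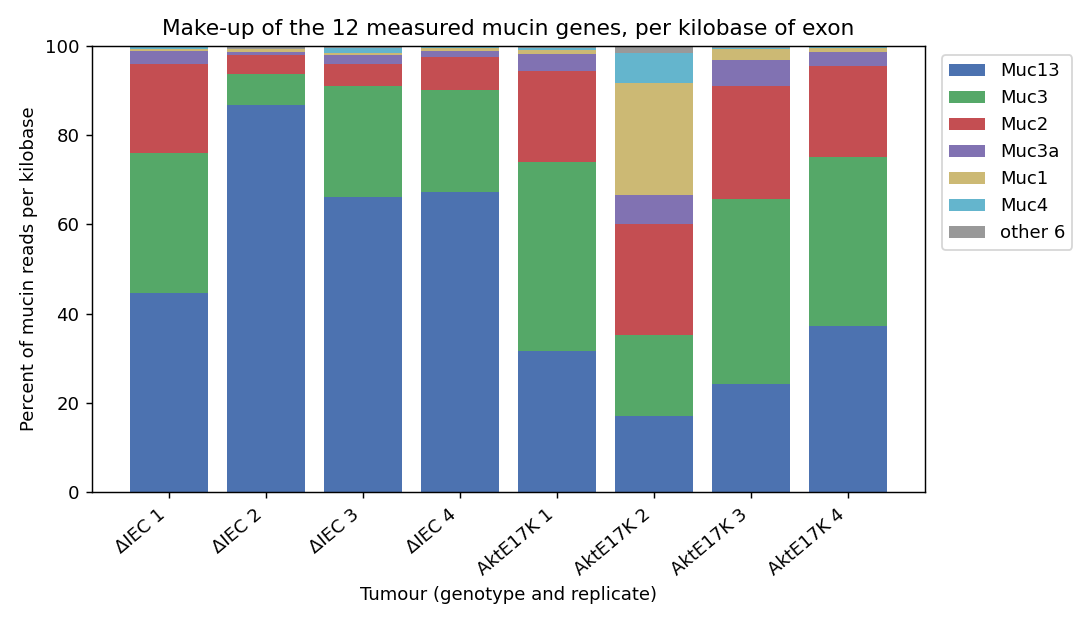
Percent of reads per kilobase of exon summed over 12 mucin genes (stacked bars, each adding to 100) in each of the 8 tumours, with the 6 least abundant genes pooled in grey. Muc13 fills 44.8% to 86.7% of the bars of the Trp53ΔIEC tumours and 17.1% to 37.2% of the others, and Muc1 is visible as a broad band (25.1%) in Trp53ΔIECAktE17K replicate 2.

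Other mucin genes were tested with the same fit. Of 8 tested members 0 passed in edgeR and limma-voom, while 3 had an unadjusted p under 0.05. DESeq2 called 4 of all 12 in the tables, Muc5b among them, and its counts for the lists below likewise cover every gene of a list, also those under the edgeR filter. All 8 had a log2 fold change above 0, as had 8448 of the 16539 tested genes. The median of the 8 was 0.90, where the median of all tested genes was 0.01. The list is not confined to gut mucins. Its largest values were those of Prg4 (3.31) and Emcn (1.43), with Muc2 at 1.04, Muc3a at 0.81 and Muc3 at 0.42. Prg4, the lubricin gene, had 1.12 to 1.81 CPM against 3.22, 3.50, 3.95 and 44.0 CPM (adjusted p = 0.102), and Emcn, an endothelial sialomucin gene, 4.10 to 9.91 CPM against 10.4 to 26.4 CPM (adjusted p = 0.106). Of 20 colon goblet cell genes 1 passed, Spdef, a transcription factor of goblet cell maturation, with 12.4, 10.3, 11.2 and 7.07 CPM against 14.4, 43.0, 24.4 and 38.7 CPM (log2 fold change 1.56, adjusted p = 0.0494). The median of the goblet list was 0.74, and over all tested genes 4.2% passed. The Spdef call held without Trp53ΔIECAktE17K replicate 1 and was lost without any 1 of the other 7 tumours (adjusted p up to 0.129). It was also lost in limma-voom (adjusted p = 0.100), with RLE scaling (0.0513), with all genes of at least 1 read (0.0524) and with the title letter as a term (0.167).

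Genes of the stomach lining were read from lists as well, to see whether the gastric genes came with their usual company. Of 16 tested surface and neck cell genes edgeR called 0 (unadjusted p under 0.05 in 3, DESeq2 3, limma-voom 0), with a median log2 fold change of 0.53. The log2 fold change was above 0 in 11 of them and below 0 in 5. Of the 17 such genes in the tables, 2, 0, 1 and 1 were highest in the Trp53ΔIEC tumours and 2, 7, 1 and 3 in those with AktE17K. A4gnt, the enzyme that adds the terminal sugar typical of gland mucins and a neighbour of Cldn18, had 0.842, 0.113, 0.447 and 0.605 CPM against 1.61, 7.24, 1.18 and 3.35 CPM. Its groups did not overlap (log2 fold change 2.73, adjusted p = 0.0868). Sult1c2 had 0.639 to 2.83 CPM against 3.40 to 10.9 CPM (adjusted p = 0.103). Chosen after their values were seen, Gkn1, a secreted peptide gene of stomach surface cells, had 15.8 CPM in Trp53ΔIECAktE17K replicate 2 and 0.752 to 4.64 CPM in the other 7 tumours, and the water channel gene Aqp5 70.8 CPM and 0.376 to 21.9 CPM. In both, Trp53ΔIEC replicate 3 was the highest of its group, at 4.64 and 13.7 CPM. Other genes of the list peaked elsewhere. Ctse (265 CPM) and Onecut2 (188 CPM) were highest in Trp53ΔIEC replicate 1. Psca was highest in Trp53ΔIECAktE17K replicate 1, at 170 CPM against 4.03 CPM in replicate 2.

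Genes of the acid and enzyme glands of the stomach were uneven. Atp4b, a subunit of the acid pump, had 0 reads in all 8 tumours, Pga5 at most 1 read and the intrinsic factor gene Gif at most 9 reads. Of 4 tested gland genes edgeR called 0 (unadjusted p under 0.05 in 1, DESeq2 1, limma-voom 0). The ghrelin gene Ghrl, also made in the intestine, had 0 to 0.338 CPM in Trp53ΔIEC tumours and 4.15, 31.3, 0.420 and 0.512 CPM in Trp53ΔIECAktE17K tumours (adjusted p = 0.102). Pgc, a pepsinogen gene, had 0.447 to 2.26 CPM against 0.279 to 1.31 CPM, and Bhlha15, a factor of secretory cells in several organs, 2.14 to 6.70 CPM against 1.77 to 11.3 CPM. Atp4a, the other subunit of the acid pump, had 0.465 to 8.73 CPM against 6.10 to 16.9 CPM (adjusted p = 0.339).

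Of 13 tested transcription factor genes of gut identity edgeR called 0, and an unadjusted p was under 0.05 for 1 higher and 2 lower. DESeq2 called 2 higher and 2 lower, and limma-voom 0. The median was -0.53. Klf5, a crypt factor, had 216 to 354 CPM against 72.7 to 189 CPM (log2 fold change -1.17, adjusted p = 0.0648). Sox2, a factor of stomach and squamous epithelium, had 0.536, 11.2, 22.5 and 6.33 CPM against 119, 133, 629 and 37.9 CPM (log2 fold change 4.51, adjusted p = 0.0773). Among Sox2 values the highest was in Trp53ΔIECAktE17K replicate 3, the tumour with the most Muc5ac. This tumour was the highest for 21.5% of all tested genes, and a link between the 2 genes was not tested.

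Of 23 enzymes that build the sugar chains of mucins 1 passed, B3gnt6, which makes the core 3 chain of colon mucins, with 0.459 to 0.503 CPM against 0.974 to 1.60 CPM (log2 fold change 1.57, adjusted p = 0.0247). It lost its call without any 1 of the 4 Trp53ΔIEC tumours and without Trp53ΔIECAktE17K replicate 2 (adjusted p up to 0.0846), and with the title letter as a term (0.0798) or all genes of at least 1 read (0.0514). B3gnt6 had 9 to 13 reads per Trp53ΔIEC tumour and 23 to 39 per Trp53ΔIECAktE17K tumour. The list's median was -0.03, and over all tested genes 4.2% passed. Of 10 tested genes of mucin and trefoil processing and reception 1 passed, Cxcr4, a chemokine receptor also reported to respond to trefoil peptides, with 10.2 to 18.8 CPM against 23.9 to 30.4 CPM (log2 fold change 0.98, adjusted p = 0.0481). Its call was lost in all 8 runs that left out 1 tumour (adjusted p up to 0.131), and with the title letter as a term (0.140), RLE scaling (0.0509) or all genes of at least 1 read (0.0564).

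Some markers of fibroblasts, smooth muscle, heart muscle and squamous epithelium rose with AktE17K in edgeR. The part of cell types in the values above was not tested. In whole tumours, fewer cells of a type and less RNA per cell cannot be told apart. Over all tested genes 3.44% passed higher and 0.756% lower in edgeR. Of 12 epithelial markers 0 passed in edgeR (5 lower at an unadjusted p under 0.05, 2 by DESeq2, 0 by limma-voom), the smallest p being those of Esrp1 and Vil1, at -0.49 and -1.21 on the log2 scale. Their median was -0.48, and their summed level was 10915 to 13812 CPM in Trp53ΔIEC and 6971 to 13228 CPM in Trp53ΔIECAktE17K tumours. With library sizes set to the summed epithelial markers, 1349 genes were called higher and 44 lower in place of 569 and 125, and the median log2 fold change of all genes was 0.52. On that scale the 7 tested genes again gave 0 calls, with Muc1 at 2.45 (adjusted p = 0.0810) and Muc13 at -1.24. Of 12 fibroblast markers 4 rose (Fbn1, Col1a2, Dcn and Col1a1), with summed levels of 3048 to 4288 against 5178 to 8784 CPM, and of 8 smooth muscle markers 6 rose, such as Cnn1, Des and Tagln, with 272 to 454 against 1076 to 1767 CPM. Of 11 tested squamous markers 6 rose, among them Krt5, Krt6a, Krt6b and Krtdap, with a summed level of 63.2 to 243 against 209 to 16639 CPM, while limma-voom called 0 of them and DESeq2 9. The squamous sum was highest in Trp53ΔIECAktE17K replicate 1. None of the 10 genes reached its highest level there, nor in Trp53ΔIEC replicates 1 and 4 or Trp53ΔIECAktE17K replicate 4. Of 9 immune markers 0 passed (1 at an unadjusted p under 0.05, 0 by DESeq2 and limma-voom), of 6 hepatocyte markers 1 fell, of 7 heart muscle markers 5 rose, and of 1 acinar and 2 airway markers tested 0 passed (0 and 1 at an unadjusted p under 0.05, 0 and 1 by DESeq2, 0 by limma-voom).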

How the data were processed

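Per the labels' protocols, RNA of 8 whole colon tumours was purified on RNeasy Mini columns and made into libraries by the TruSeq mRNA v2 preparation, which takes poly(A) RNA and keeps no strand information. The authors deposited raw counts of reads per Ensembl gene, 38355 genes per tumour, with 5 closing lines of unassigned reads that were set aside (no annotated feature, 9.74% to 11.7% of uniquely aligned reads). Per the submitters' processing notes the build was mm10 and the tools named were HTSeq 0.6, STAR 2.3.0, DESeq2 1.8.1, CASAVA 1.8.2 and SAMtools 1.2, with no role stated. The annotation release and strand setting used for counting are not given there. Symbols, positions and exon lengths were taken from GENCODE M21 (GRCm38), where 95.4% of identifiers were found.

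Counts were fitted over the whole table with edgeR 4.0.16 in R 4.3.3 (filterByExpr, TMM, robust quasi-likelihood F-test, group as the only term, Benjamini-Hochberg over 16539 genes, threshold 0.05). Intervals of fold changes use the moderated degrees of freedom. Genes under the filter got a two-sided exact permutation test of CPM over the 70 assignments of the tumours. Limits from 0 reads use 3 counts and, like all counting limits, cover counting error only. DESeq2 1.42.0, limma 3.58.1 (voom), other scalings and filters, the replicate number and the title letter as terms, and leaving out each tumour were alternatives. From each list up to 4 called genes with the smallest adjusted p were named, or else the 2 with the smallest unadjusted p, beside the 10 genes, Muc2, Muc5b, Tff3 and the genes most like each. The genes, lists and tests were chosen with earlier results of these data known.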

Additional observations from a re-analysis of the deposited data

Results flagged for a closer look

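In 26 groups of 4 tumours (the 10 genes with Muc2, Muc5b and Tff3 in both genotypes), the tumour farthest from the rest was examined. In 7 groups its gap to the nearest of the others was over 0.829 of the group's range. About 1 of 20 groups would pass that limit if values were normally distributed. The gap was taken on CPM and not on a log scale, and all 7 flagged values were the highest of their group. That rate need not hold here, and no excess is read from the 7. In Trp53ΔIECAktE17K replicate 2 the flagged values were Tff1 at 29.8 CPM (0.504 to 1.68 CPM in the other 3 tumours of its group) and Muc1 at 159.3 CPM (13.0 to 35.2 CPM). In Trp53ΔIEC replicate 3 they were Muc4 at 153.8 CPM (18.8 to 33.3 CPM), Muc20 at 11.1 CPM (3.21 to 3.87 CPM), Tff1 at 3.30 CPM (0.186 to 0.414 CPM) and Cldn18 at 2.68 CPM (0.0383 to 0.372 CPM). In Trp53ΔIECAktE17K replicate 3 it was Muc5ac at 5.88 CPM (0.123 to 0.593 CPM). The 7 values are not independent, since Muc4 and Muc20 followed each other.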

How the results depend on the processing

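The count of the 10 genes called was 0 higher and 0 lower under every alternative run except DESeq2, which called 3 higher and 0 lower. Over the whole table, DESeq2 called 1715 higher and 764 lower genes in place of 569 and 125, epithelial scaling 1349 and 44, and the title letter as a term 90 and 6. Leaving out 1 tumour gave 64 to 702 higher and 10 to 247 lower, with fewer samples in the fit. The counts came within 1.5 times of the full fit only without Trp53ΔIECAktE17K replicate 3 (567 and 98) and, for higher genes alone, replicate 4 (702). Muc4, Muc20 and Anxa10 reversed with the title letter as a term (log2 fold change -0.75, -0.33 and -2.80) and without Trp53ΔIECAktE17K replicate 2 (-0.81, -0.34 and -0.67). Without Trp53ΔIEC replicate 3 they were 1.57, 0.89 and 2.31. Jchain, an immune marker named by the rule, reversed to -0.27 without Trp53ΔIECAktE17K replicate 4. Among 4 alternatives of scaling, 2 of filtering and 1 of dispersion none reversed a tested gene of the 10. After the data were seen, 2 further fits were added: tumours of title letter B only (22 higher and 4 lower over the table, Muc4 -0.78, Muc20 -0.35, Anxa10 -2.83), and all but Trp53ΔIEC replicate 3 and Trp53ΔIECAktE17K replicate 2 (30 and 8, Muc1 0.77, Tff1 1.76, Jchain 2.05). Both called 0 of the 10. The letter is A only for Trp53ΔIECAktE17K replicates 1 and 2, so no Trp53ΔIEC tumour carries it. With the letter as a term, the genotype difference thus rests on Trp53ΔIECAktE17K replicates 3 and 4, as in the fit of letter B only. These 2 fits also set replicate 2 aside and are not checks separate from leaving it out. The labels do not explain the letter. The cause of these shifts was not tested.

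The labels name no pairing of the tumours. Deviations of tumours with the same replicate number correlated by -0.04, 0.01, -0.24 and 0.01. With 4 tumours per group these values cannot exclude a shared batch. With the replicate block the calls over the table were 48 higher and 2 lower, and 0 of the 10 genes were called. Spdef, B3gnt6 and Cxcr4 were not called with the block either (adjusted p = 0.176, 0.102 and 0.0937). By these deviations no Trp53ΔIEC tumour correlated best with its own number. With 4 against 4 tumours and this spread, the intervals printed above allow changes of several-fold in either direction for Anxa10 and Muc4.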
